A study of Homo sapiens with 6 samples.

Results

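The 9 genes described here code for enzymes that make, oxidise, hydroxylate or release proline and hydroxyproline, and they were taken by symbol from a count table of 12396 genes; all 9 had a row. PRODH2 was chosen by its fold change in the comparison below, and the other 8, enzymes of the same pathways, were listed with results of that comparison in view. The changes of the 9 genes are therefore given as descriptions, without p-values. The libraries came from JHH-4, a human hepatocellular carcinoma line labelled epithelial-like. Control cells were labelled WT, with no vector named, and in the others hsa-miR-372-3p was overexpressed by means of a pri-miRNA plasmid; both were grown in EMEM with 10% FBS. Each group held 3 libraries, described by the series as technical replicates, so the spread between them may be technical only. Standard errors, intervals, p-values and calls below rest on this spread and may not hold for independent cultures. The sources used here do not give the duration, the dose or any selection.

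Proline is made from glutamate through pyrroline-5-carboxylate, by ALDH18A1 and the PYCR reductases, and is oxidised back along the same intermediate by PRODH and ALDH4A1 in mitochondria. Hydroxyproline arises when prolyl 4-hydroxylases act on collagen chains, and it is freed when collagen is degraded. Liver and kidney break it down as far as glyoxylate in mitochondria. PRODH2 oxidises hydroxyproline, ALDH4A1 and the transaminase GOT2 carry the product on, and HOGA1 splits it to pyruvate and glyoxylate. GRHPR and AGXT dispose of glyoxylate, which otherwise can become oxalate.

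The overexpressed microRNA pairs with messenger RNAs mainly through its seed, bases 2 to 8. It is shown with the seed in capitals, followed by the 3 places in the 9 genes that hold the full 7-base match to that seed, in capitals within their surroundings, because they show which of these transcripts could pair with it through this match.
hsa-miR-372-3p: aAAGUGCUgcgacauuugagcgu
P4HA2 3′ UTR: tcactgcccccAGCACTTtggagataaat
PRODH coding sequence: caagctgtccaAGCACTTggtagtcccca
PEPD coding sequence: ccattccaaggAGCACTTcaaggagaagt

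The mature microRNA is from RefSeq (GRCh38.p14, chr19:53787931-53787953, plus strand) and the messenger sequences are from GENCODE 29 (GRCh38). The P4HA2 match lies at chr5:132192156-132192162, the PRODH match at chr22:18921361-18921367 and the PEPD match at chr19:33500981-33500987, all on the minus strand. The search covered GCACTT with or without A on either side, on the transcript strand only, in the annotated 3′ UTR that is longest for each gene. PRODH2 held no match there (390 nt), nor in its longest coding sequence (1611 nt). Its transcript with that coding sequence has a 3′ UTR of only 48 nt. PRODH, ALDH4A1, ALDH18A1, PYCR1, P4HA1, PEPD and GRHPR also held none of these matches in 3′ UTRs of 394 to 1413 nt. Thus P4HA2, which rose, was the only gene of the 9 with a 3′ UTR match, and 1 of its 6 coding transcripts with an annotated 3′ UTR carried it. For comparison, 40.6% of 12188 genes searched held some match and 29.2% a match of 7 or 8 bases. AGCACTT stood in the coding sequence of 13.8% of 12276 genes. In the longest coding sequences of the 9 genes, the shorter GCACTT, without A on either side, stood in ALDH18A1, P4HA1 and P4HA2. Its share over all coding sequences was not counted. A match is a description and does not show pairing.

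Total counts ran from 48325676 to 61699567 per library, all 3 overexpression libraries being deeper than the controls. Principal components separated the groups on the first axis (72.5% of variance), and the second (10.2%) set control replicate 3 apart, at −22.0 against 14.5 and 7.27 for replicates 1 and 2. Hepatocyte identity could be checked only in part: 7 of 17 markers were measured, of which 4 rose and 3 fell. Over all genes tested, 26.8% rose and 27.7% fell. The summed level of the 7 markers was 84.5 to 91.4 CPM in controls and 90.4 to 94.1 in overexpression. ALB, APOA1, APOA2, APOB, APOH, TTR, TF, AHSG, HNF4A and AFP were not analysed here. Keratins of simple epithelia were abundant (KRT8, KRT18 and KRT19 together 3382 to 3490 CPM in controls) and all 3 rose, to a sum of 6248 to 6495 CPM in overexpression; their part in the changes below was not tested. EPCAM and CDH1, the other epithelial markers listed, were not analysed here. Of 15 listed for endothelial, stromal and blood cells, 6 were measured; PTPRC, HBB, PECAM1, VWF, CDH5, KDR, COL3A1, DCN and ACTA2 were not analysed here. In these bulk libraries, fewer cells that express a gene and less RNA per cell cannot be told apart.

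PRODH2 (ENSG00000250799, chr19:35799988-35813299, minus strand), the hydroxyproline dehydrogenase, nearly vanished with miR-372-3p overexpression. Its counts were 467, 363 and 458 in the controls, in the order of replicates 1, 2 and 3 kept throughout, and 19, 12 and 20 with overexpression. In CPM (counts scaled to a normalised library size of 1000000) these were 9.95, 7.79 and 9.43 against 0.317, 0.237 and 0.357. The lowest control thus lay far above the highest overexpression library. The means were 9.06 ± 1.13 CPM (SD, n = 3) and 0.304 ± 0.0608 CPM (SD, n = 3), a 29.8-fold difference. The edgeR log2 fold change, overexpression over control as in all values below, was −4.88 ± 0.201 (SE), with a 95% interval from −5.33 to −4.43. This was the lowest log2 fold change of all 12396 genes. The authors' deposited table gives −4.89. PRODH2 overlaps no other annotated gene and shared 0% of its 75-base words with transcripts of other genes.

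**Figure D1:**
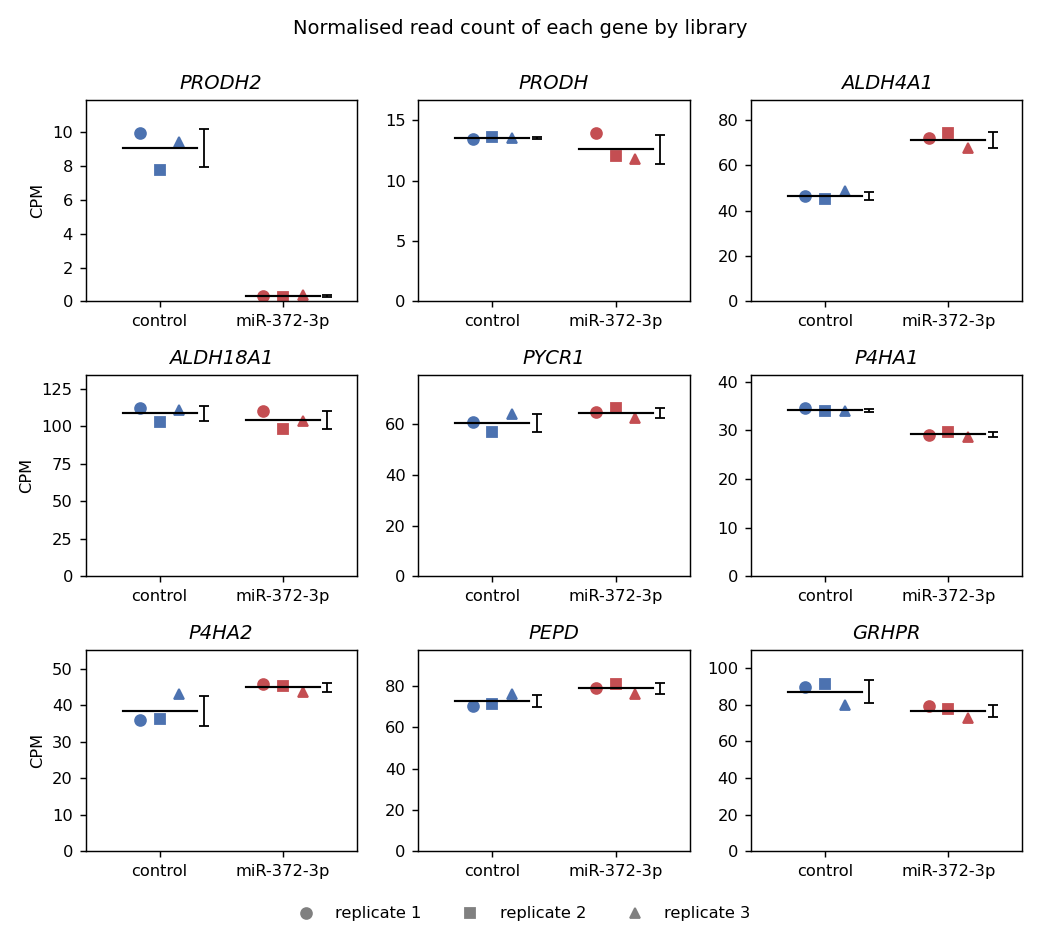
Normalised read counts (CPM, linear axis from 0) of the 9 genes in control (blue) and miR-372-3p (red) libraries; each symbol is a library, the line is the mean of 3 and the bar its SD. PRODH2 fell from 9.06 to 0.304 CPM and ALDH4A1 rose from 46.5 to 71.1 CPM, while the means of the other 7 differed by 16.8% or less.

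Over the 9 genes, 2 were called higher and 3 lower by the edgeR quasi-likelihood test at an adjusted p of 0.05, and 4 did not pass. Across all genes tested, 54.5% were called, 26.8% higher and 27.7% lower. Because the genes were chosen with this comparison known, nothing is read from their count. The groups did not overlap for 5 of the 9, 3 of them lower and 2 higher, where 62.2% of all genes did not overlap (31.4% lower and 30.7% higher). The median log2 fold change of the 9 genes was −0.059, against 0.00125 for all genes. The largest change after that of PRODH2 was the rise of ALDH4A1, and 15.4% of all genes changed more than ALDH4A1 in either direction.

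**Figure D2:**
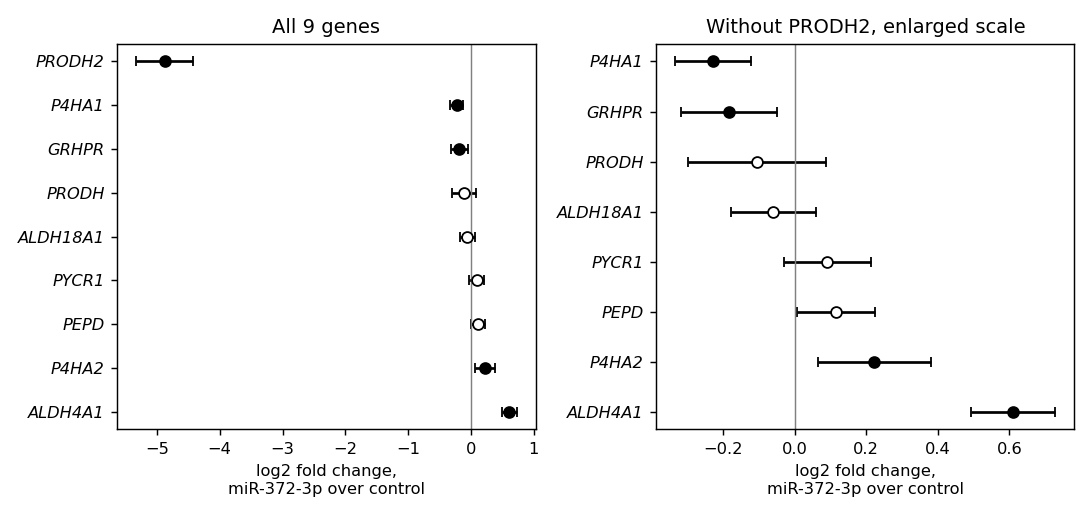
Log2 fold changes (overexpression over control) with 95% confidence intervals from edgeR for the 9 genes, left, and for 8 without PRODH2 on an enlarged scale, right; filled points were called in the fit across all genes and open points were not. PRODH2 stands at −4.88 and the others between −0.23 and 0.61.

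In the breakdown of hydroxyproline, the step after PRODH2 went the other way. ALDH4A1 (ENSG00000159423, chr1:18871430-18902781), the mitochondrial dehydrogenase that serves both proline and hydroxyproline oxidation, had 46.3, 44.9 and 48.4 CPM in controls and 71.9, 74.0 and 67.3 in overexpression. Every overexpression library was above every control, a 1.53-fold rise (log2 0.61 ± 0.053 SE, 95% interval 0.49 to 0.73). Its annotated transcripts share 35.8% of their 75-base words with AL080251.1, an overlapping locus on the same strand, and its nearest tested neighbour, IFFO2, 1.5 kb away, also rose (log2 2.02 ± 0.043). The part of either in the ALDH4A1 count was not tested.

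Further along, HOGA1, the aldolase that releases glyoxylate, fell 1.90-fold. It had 21.2, 19.1 and 21.2 CPM in controls and 9.97, 10.6 and 11.7 in overexpression, with no overlap (log2 −0.93 ± 0.084, edgeR adjusted p = 1.3e-05). GOT2, the mitochondrial aspartate aminotransferase, fell less (log2 −0.25 ± 0.034, edgeR adjusted p = 0.000195), and its cytosolic counterpart GOT1 fell by 0.44 on the log2 scale (± 0.046, edgeR adjusted p = 3.14e-05). GRHPR (ENSG00000137106, chr9:37422666-37436990, plus strand), which reduces glyoxylate and hydroxypyruvate, had 89.5, 91.6 and 79.8 CPM in controls and 79.4, 77.6 and 72.9 in overexpression. The groups are separated only by the narrow gap between control replicate 3 and overexpression replicate 1. Its log2 fold change was −0.18 ± 0.060 (95% interval −0.32 to −0.048), a fall of 11.9% in mean CPM. The call for GRHPR was lost without control replicate 1 (−0.16), control replicate 2 (−0.14), overexpression replicate 2 (−0.19) or overexpression replicate 3 (−0.15), each time with the same direction. Of the 10 other genes listed for this breakdown and for glyoxylate, 7 were measured: 4 fell, none rose and 3 did not pass (57.1% lower, against 27.7% of all genes), with a median log2 fold change of −0.147. The median was −0.232 without control replicate 2, −0.244 without overexpression replicate 3 and −0.0416 on the FPKM scale. LDHA, lactate dehydrogenase A, was the fourth to fall (log2 −0.15 ± 0.039, edgeR adjusted p = 0.00951), and it was not called on the FPKM scale (−0.042). Without control replicate 3, 1 gene of this list was called higher. AGXT, AGXT2 and HAO1 were not analysed here.

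PRODH (ENSG00000100033, chr22:18912777-18936553, minus strand), the proline dehydrogenase and the paralogue of PRODH2, did not follow it. PRODH had 13.4, 13.6 and 13.6 CPM in controls and 13.9, 12.1 and 11.8 in overexpression. The overexpression libraries straddled the controls, with replicate 1 above all of them and replicates 2 and 3 below. The log2 fold change was −0.10 ± 0.086 (95% interval −0.30 to 0.088) and did not pass; it was −0.18 without overexpression replicate 1 and −0.058 without replicate 3, with no call in either. PRODH shares 6.39% of its 75-base words with other annotated transcripts, and it overlaps DGCR6 on the opposite strand, which rose (log2 0.52 ± 0.141, edgeR adjusted p = 0.0105); the library kit named does not mark strand. Per gene length, in FPKM deposited by the authors, PRODH2 and PRODH overlapped in controls, with a PRODH2 to PRODH ratio of 1.05 ± 0.111 (SD, n = 3). In overexpression the ratio was 0.0332 ± 0.00692 (SD, n = 3).

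The enzymes that make proline were nearly level. ALDH18A1 (ENSG00000059573, chr10:95605929-95656706), the synthase that turns glutamate into pyrroline-5-carboxylate, had 111.8, 102.8 and 110.7 CPM in controls and 110.2, 98.4 and 103.6 in overexpression. Its ranges overlapped (log2 −0.06 ± 0.053, 95% interval −0.18 to 0.059). PYCR1 (ENSG00000183010, chr17:81932384-81942412), a mitochondrial reductase that completes the synthesis, had 60.7, 56.6 and 63.7 CPM in controls and 64.7, 66.0 and 62.2 in overexpression. These ranges overlapped too (log2 0.09 ± 0.054, 95% interval −0.029 to 0.21). Neither passed in the fit, and their intervals leave room for changes of up to 0.21 on the log2 scale. PYCR1 was called higher when control replicate 3 was left out (log2 0.13). Its annotated transcripts share 17% of their 75-base words with the overlapping loci AC145207.4 and MYADML2.

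Around these, 7 of 9 other listed genes of proline, ornithine and glutamate conversion were measured: 3 rose, 1 fell and 3 did not pass (median log2 0.126). These shares were 42.9% higher, against 26.8% of all genes, and 14.3% lower, against 27.7%. Without control replicate 2, with DESeq2 and with a replicate block, 2 of the 7 fell instead of 1. The gene that fell was GLUL, glutamine synthetase, from 141.9 to 77.6 mean CPM (log2 −0.87 ± 0.040, edgeR adjusted p = 1.48e-07). ARG2, the mitochondrial arginase that yields ornithine, rose from 8.07 to 13.6 mean CPM (log2 0.75 ± 0.105, edgeR adjusted p = 0.000234), and GLUD1, glutamate dehydrogenase, rose by log2 0.30 ± 0.046 (edgeR adjusted p = 0.000443). The cytosolic reductase PYCR3 had a log2 fold change of −0.00044 ± 0.084, and OAT, ornithine aminotransferase, one of 0.13 ± 0.058; neither passed.

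The catalytic subunits of collagen prolyl 4-hydroxylase moved in opposite directions by similar small amounts. P4HA1 (ENSG00000122884, chr10:73007217-73096974, minus strand) had 34.5, 33.9 and 34.1 CPM in controls and 29.1, 29.7 and 28.7 in overexpression. Its groups were tight and did not overlap (log2 −0.23 ± 0.047, 95% interval −0.33 to −0.12). P4HA2 (ENSG00000072682, chr5:132191838-132295315, minus strand) had 35.9, 36.3 and 43.2 CPM in controls and 45.9, 45.2 and 43.6 in overexpression. Control replicate 3 lay close to the overexpression libraries and away from the other controls. The log2 fold change of P4HA2 was 0.22 ± 0.070 (95% interval 0.066 to 0.38), and 0.31 without control replicate 3. Its call was lost without control replicate 1 (0.17), control replicate 2 (0.19), overexpression replicate 1 (0.21) or overexpression replicate 2 (0.22). Per length, the ratio of P4HA2 to P4HA1 was 1.22, 1.08 and 1.29 in controls and 1.64, 1.67 and 1.62 in overexpression, without overlap. The antisense gene P4HA2-AS1 overlaps P4HA2, and 5.38% of the 75-base words of P4HA2 occur in other annotated transcripts.

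Other genes of collagen hydroxylation and folding were mostly lower. Of 14 measured on this list, 10 fell, 1 rose and 3 did not pass. That was 71.4% lower, against 27.7% of all genes, and 7.14% higher, against 26.8%, with a median log2 fold change of −0.228. The number that fell was 8 without overexpression replicate 3. P4HTM, a prolyl 4-hydroxylase that acts on HIF rather than collagen, was counted among the 14 and did not pass. P4HB, protein disulfide isomerase and the shared beta subunit of prolyl 4-hydroxylase, fell from 1136 ± 22.4 to 980 ± 15.4 mean CPM (SD, n = 3; log2 −0.21 ± 0.033, edgeR adjusted p = 0.000412). FKBP10, a collagen prolyl isomerase, fell by 0.45 on the log2 scale (± 0.035, edgeR adjusted p = 4.49e-06), and P3H2, a prolyl 3-hydroxylase, by 0.36 (± 0.059, edgeR adjusted p = 0.0006). SERPINH1, the collagen chaperone HSP47, was the gene that rose (log2 0.63 ± 0.037, edgeR adjusted p = 6.89e-07). P4HA3, another alpha subunit, was low, at 2.19 mean CPM in controls and 1.72 in overexpression, and did not pass.

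Of 21 measured collagen chains, the substrates of these enzymes, 12 rose, 6 fell and 3 did not pass (57.1% higher, against 26.8% of all genes, and 28.6% lower, against 27.7%). Their median log2 fold change was 0.349; it was 0.573 without control replicate 1, 0.532 with a mean of at least 2 CPM and 0.527 with a replicate block. COL1A1 rose most (log2 3.72 ± 0.197, edgeR adjusted p = 3.63e-07), followed by COL27A1 (2.41 ± 0.152, edgeR adjusted p = 1.07e-06) and COL12A1 (1.84 ± 0.161, edgeR adjusted p = 1e-05). Among the 6 measured markers of other cell types, 3 passed and were higher (50%, against 26.8% of all genes): COL1A1 itself, PDGFRA and PDGFRB. The 6 summed to 138.0 to 158.6 CPM in controls and 215.3 to 228.5 in overexpression. In that sum COL1A1 went from 4.84 to 64.0 mean CPM and CD68, which did not pass, from 130.3 to 129.1. Because COL1A1 is in both lists, the sum is not independent of the collagen values. The part of the markers in the collagen values was not tested. The 4 prolyl hydroxylases listed as acting on HIF or ribosomal protein, a list without P4HTM, split. Of these, 50% were higher, against 26.8% of all genes, and 25% lower, against 27.7%. EGLN2 (log2 0.30 ± 0.041, edgeR adjusted p = 0.000202) and OGFOD1 (0.15 ± 0.048, edgeR adjusted p = 0.0255) rose. EGLN1 fell (−0.22 ± 0.064, edgeR adjusted p = 0.0155) and EGLN3 did not pass. EGLN1 was not called without overexpression replicate 1 (−0.20) or replicate 2 (−0.18) or on the FPKM scale (−0.21), nor OGFOD1 without control replicate 3 (0.12) or overexpression replicate 1 (0.14) or 3 (0.13).

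**Figure D3:**
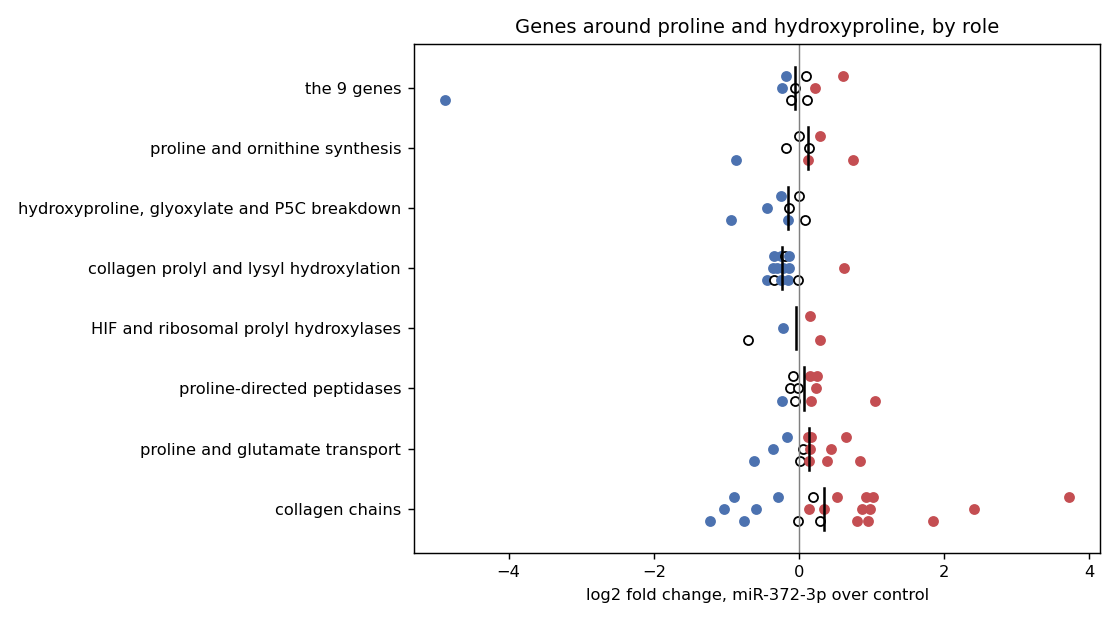
Log2 fold changes (overexpression over control) of each measured gene, by list; red points were called higher, blue points lower and open points did not pass, and the black bar is the list's median. PRODH2 lies at −4.88 on the far left and COL1A1 at 3.72 on the far right. Of 14 genes listed under collagen hydroxylation, 10 are blue.

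PEPD (ENSG00000124299, chr19:33386950-33521794, minus strand), the prolidase that splits dipeptides ending in proline or hydroxyproline, had 70.3, 71.3 and 76.0 CPM in controls and 79.0, 81.0 and 75.8 in overexpression. The ranges overlapped through control replicate 3 and overexpression replicate 3. The log2 fold change was 0.12 ± 0.049 (95% interval 0.0062 to 0.23), which did not pass over all genes and did so without control replicate 3 (0.15). Of 10 other measured peptidases, most of which cut next to proline, 5 rose, 1 fell and 4 did not pass (median log2 0.0651). These shares were 50% higher, against 26.8% of all genes, and 10% lower, against 27.7%. FAP rose from a low level of 0.807 to 1.67 mean CPM (log2 1.05 ± 0.270, edgeR adjusted p = 0.00852). XPNPEP1, an aminopeptidase (0.25 ± 0.041, edgeR adjusted p = 0.000686), and PREP, the prolyl oligopeptidase (0.24 ± 0.046, edgeR adjusted p = 0.00157), rose less. The median was −0.012 when a mean of at least 2 CPM was asked for, and the number that rose was 3 without control replicate 1, overexpression replicate 1 or overexpression replicate 2.

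Of 13 measured carriers of proline, glutamine, glutamate and related amino acids, 8 rose, 3 fell and 2 did not pass. That was 61.5% higher, against 26.8% of all genes, and 23.1% lower, against 27.7%, with a median log2 fold change of 0.136. The number that rose was 6 without control replicate 1, overexpression replicate 2 or overexpression replicate 3. SLC36A1, a proton-coupled carrier of small amino acids including proline, rose from 12.1 to 21.7 mean CPM (log2 0.85 ± 0.065, edgeR adjusted p = 4.17e-06). SLC38A2, a sodium-coupled carrier of neutral amino acids that also takes up proline, rose from 420.8 to 660.2 mean CPM (log2 0.65 ± 0.053, edgeR adjusted p = 6.64e-06). SLC1A4, a neutral amino acid exchanger, fell (log2 −0.62 ± 0.052, edgeR adjusted p = 7.6e-06).

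Per gene length, the order of the 9 genes in controls ran from GRHPR at 60.0 ± 3.62 FPKM (SD, n = 3) through PEPD at 34.1, PYCR1 at 29.7, ALDH18A1 at 28.7, ALDH4A1 at 13.1, P4HA2 at 12.8, P4HA1 at 10.7 and PRODH2 at 5.21 to PRODH at 4.94 ± 0.0611 (SD, n = 3). Neighbours whose control libraries overlapped were PYCR1 with ALDH18A1, ALDH4A1 with P4HA2, and PRODH2 with PRODH. In overexpression the order was the same except for PRODH2, which dropped to the last place at 0.157 ± 0.0311 FPKM (SD, n = 3), below PRODH at 4.76. ALDH4A1 at 19.8 FPKM then stood clear of P4HA2, which had 15.2, 15.4 and 14.6 FPKM, and PEPD at 37.3 overlapped PYCR1 at 33.2.

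**Figure D4:**
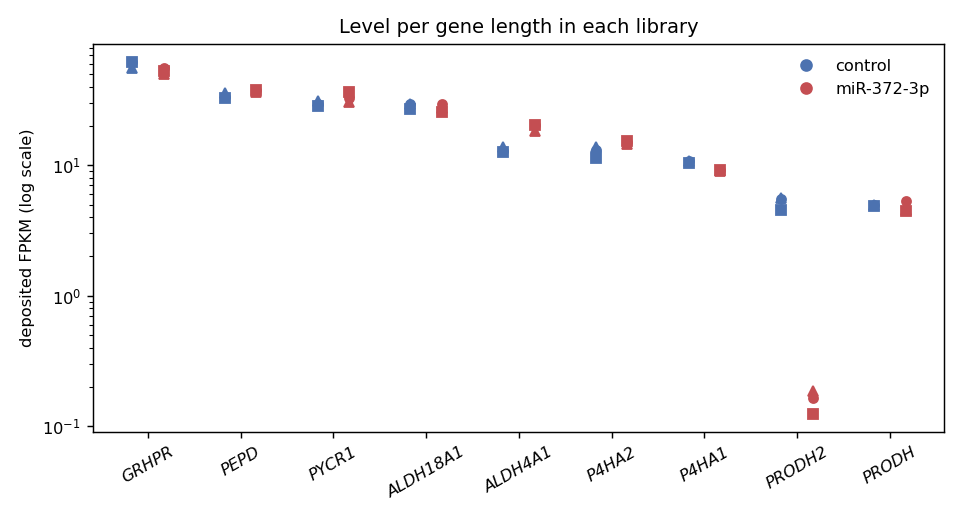
FPKM deposited by the authors (log axis) for the 9 genes in each control (blue) and miR-372-3p (red) library, in the order of the control means; symbols mark replicates 1 (circle), 2 (square) and 3 (triangle). The 8 other genes lie between 4.47 and 62.4 FPKM in all libraries, and PRODH2 drops from 5.21 to 0.157.

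Genes whose libraries ran most like those of PRODH2 were sought among 11703 others with a mean of at least 2 CPM, by the root mean square difference of log2 CPM from the control mean over the 6 libraries. Near the top were CLVS1 (difference 0.699), HLA-DRA (0.816), HSD17B2 (0.922) and HLA-DRB5 (1.00), the last with close paralogues that make its count uncertain. CLVS1 went from 9.56 ± 1.24 to 0.650 ± 0.122 CPM (SD, n = 3) and HSD17B2, a steroid dehydrogenase, from 4.38 ± 0.490 to 0.345 ± 0.0928 CPM (SD, n = 3). None of these log2 fold changes, from −3.88 to −3.56, reached that of PRODH2.

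Of the 4 tested genes next to PRODH2 on chromosome 19, taken as 2 on either side, 3 also fell, by less. ARHGAP33, 11.2 kb away, fell by 0.73 on the log2 scale (± 0.075, edgeR adjusted p = 2.95e-05), and PROSER3 beyond it by 0.44 (± 0.093, edgeR adjusted p = 0.00304). On the other side, APLP1, 54.6 kb away, fell by 1.26 (± 0.159, edgeR adjusted p = 0.000114), and NFKBID had a log2 fold change of −0.13 ± 0.116, which did not pass. Within 500 kb on either side, 30 other genes were tested, of which 14 fell, 2 rose and 14 did not pass (46.7% lower, against 27.7% of all genes; median log2 −0.119). This window was chosen after the fall of PRODH2 was known, and the lowest value in it was that of SBSN (−2.27 ± 0.117).

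**Figure D5:**
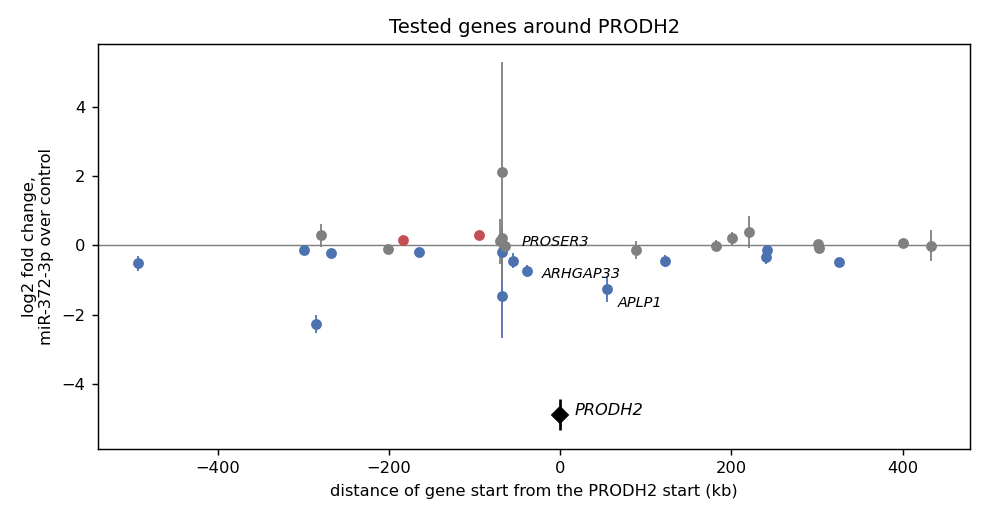
Log2 fold changes (overexpression over control) with 95% confidence intervals of the 30 genes tested within 500 kb of PRODH2, against the distance of their starts from its start; blue points were called lower, red points higher and grey points did not pass. PRODH2, the diamond, lies at −4.88, and the 30 others are spread around a median of −0.119.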

How the data were processed

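RNA-seq was measured in 3 control and 3 overexpression libraries, grouped and numbered by their titles. The deposited counts are whole numbers per gene, not normalized; the FPKM values beside them, named so per the file headers, account for gene length and depth. The authors' table also holds a p-value, which was not used, and a log2 fold change. The submitters' processing notes name GRCh38, HISAT2 2.0.4, StringTie 2.2.1 and DESeq2 1.38.3, with no roles; no source used here gives the annotation or the counting. Of 14006 rows, 1610 name no gene (2.64 to 3.63% of counts) and were left out; no row has under 208 counts. The test was the quasi-likelihood F-test of edgeR 4.0.16 under R 4.3.3 (TMM factors, no block, Benjamini-Hochberg over 12396 genes, threshold 0.05), checked on simulated data. DESeq2 1.42.0 and limma 3.58.1 served as alternatives. Between replicates, chi-square values divided by their degrees of freedom ran from 6.86 to 38.6, above counting noise. 3′ UTRs of at least 50 nt came from GENCODE 29, which held all IDs.

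The genes and lists were chosen with earlier results of these data known. From each list the text names up to 3 passing genes of largest change, with PYCR3, OAT, HOGA1, P4HB and COL1A1 whatever they did; neighbours on the chromosome, and other genes, were named after their values were seen. The genes most like PRODH2 are the 5 nearest by that measure. Some genes that these rules name are not reported here.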

Additional observations from a re-analysis of the deposited data

How the results depend on the processing

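Over 13 alternatives (DESeq2 size factors, upper-quartile factors, DESeq2, a minimum of 2 CPM, unnamed loci kept, a replicate block, limma on log2(FPKM + 0.1), and each library left out), the log2 fold change of PRODH2 stayed between −5.01 and −4.37, that of ALDH4A1 between 0.58 and 0.65 and that of P4HA1 between −0.24 and −0.21, each with its call. The 4 genes that did not pass ranged from −0.18 to −0.057 (PRODH), −0.10 to −0.022 (ALDH18A1), 0.053 to 0.16 (PYCR1) and 0.091 to 0.15 (PEPD). No gene of the 9 changed direction. The number called higher ran from 1 to 4 and the number called lower from 2 to 3 when a library was left out; it was 4 higher without control replicate 3. Over all genes, 2800 to 3546 were called higher and 2942 to 3553 lower.

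With the replicate number as a block, 2 of the 9 genes were called higher and 3 lower, as without it, and PRODH2 stood at −4.89. Same-numbered libraries did not deviate together (correlations −0.136, −0.0517 and 0.103), so the numbers were not taken to pair them. PRODH2 had 51 reads over the 3 overexpression libraries, which limits the precision of its remaining level.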
